A study of Mus musculus with 10 samples.

Results

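RNA of 8 transcription factors that direct myeloid fate was measured in blood stem and progenitor cells of mice with and without deletion of Ezh2. The 8 genes are the C/EBP family members Cebpa, Cebpb, Cebpd, Cebpe and Cebpg, the Ets factor Spi1 (PU.1), the zinc finger repressor Gfi1 and the interferon regulatory factor Irf8. They were found among the 20972 genes named on the array by the RefSeq accession of their probes. Each had 1 probe, and each probe was well above background on all 10 arrays, so all 8 members entered every comparison.

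Each array measured 1 RNA sample of LSK cells, bone marrow cells without lineage markers that carry c-Kit and Sca-1. This gate takes in the blood stem cells and the earliest progenitors, and the cells were sorted by CD45.2 after a transplant. All samples were of the C57BL/6 strain, all carried Cre-Ert, a Cre recombinase that tamoxifen switches on, and all were taken after tamoxifen. The WT arrays carried Cre-Ert alone and the KO arrays Cre-Ert;Ezh2fl/fl, in which tamoxifen removes Ezh2, the H3K27 methyltransferase of Polycomb repressive complex 2. Slide 1 held 1 WT and 1 KO array, labelled 3 months and without disease. Slide 2 held 1 WT array without disease and 7 KO arrays, all labelled 9 to 12 months: 2 from mice with myelodysplastic syndrome (MDS), 3 with MDS/MPN, an overlap with myeloproliferative neoplasm, 1 whose disease was not determined, and 1 labelled as a mix of these diseases. MDS/MPN replicate 1 has TC added to its disease label and replicate 3 has CMMoL added to its source label. The design text gives n=3 for the 3-month groups, which have 1 array each; whether those arrays hold pooled mice, the promoter that drives the Cre and the share of cells that kept Ezh2 are not given in the sources used here. The mixed array was kept apart from the 6 other KO arrays of slide 2 unless stated, because its label names several diseases. It may hold RNA of the same mice as those arrays, so its independence from them is not known.

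The scanner files and the deposited value table disagree on time for 4 arrays: in the table, the WT and mixed KO columns labelled 9 to 12 months hold the slide 1 signals, and the columns labelled 3 months those of slide 2. Times here are those of the scanner files, and the pairs are named by slide, since neither source settles which is right. All 6 markers of the LSK gate were well above background on all 10 arrays. Ezh2 RNA, read by 1 probe whose place relative to the deleted part is not known, read 2.63 in WT on slide 2 against 2.13 to 3.35 over the 6 KO arrays (limma difference -0.15 ± 0.52 SE, adjusted p = 0.9999), so it does not check the labels. The signal behind each array, its 75th percentile, was 78.7 to 301.7 intensity units.

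C/EBP alpha starts the granulocyte and monocyte program in multipotent progenitors together with PU.1, which opens myeloid enhancers and acts by dose. Gfi1 is a repressor that favours granulocytes, Irf8 favours monocytes and dendritic cells, and C/EBP epsilon drives the later granulocyte steps in which secondary granule genes are switched on. C/EBP beta serves emergency granulopoiesis, C/EBP delta responds to inflammatory signals, and C/EBP gamma, which lacks a classical activation domain, pairs with other bZIP proteins.

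The RefSeq promoter table (GRCm38.p6) held 5 of the 8 genes. The 250 bases before the start site are shown for Cebpa, Gfi1 (the first of 2 listed starts) and Irf8 (the first of 2), because each had its lowest signal of all 10 on the WT array of slide 1 and was at least 2-fold higher on the KO array beside it. Cebpe had the same pattern. All are written 5' to 3' on the strand of the gene, at chr7:35119043-35119292 (plus), chr5:107725806-107726055 (minus) and chr8:120736108-120736357 (plus). Capitals mark matches to 3 short motifs searched on both strands: the C/EBP site TTGCNNAA, the PU.1 core GAGGAA and the Gfi1 core AAATCA.

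Cebpa: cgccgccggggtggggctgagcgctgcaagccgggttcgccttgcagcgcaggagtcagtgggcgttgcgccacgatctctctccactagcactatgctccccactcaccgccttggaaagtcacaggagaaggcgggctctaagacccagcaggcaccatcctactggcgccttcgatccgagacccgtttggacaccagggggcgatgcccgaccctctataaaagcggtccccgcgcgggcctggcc
Gfi1: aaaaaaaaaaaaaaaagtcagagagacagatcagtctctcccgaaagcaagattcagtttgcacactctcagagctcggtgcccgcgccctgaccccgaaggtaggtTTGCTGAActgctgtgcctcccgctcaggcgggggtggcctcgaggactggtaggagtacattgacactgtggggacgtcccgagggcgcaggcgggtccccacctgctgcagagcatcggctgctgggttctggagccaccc
Irf8: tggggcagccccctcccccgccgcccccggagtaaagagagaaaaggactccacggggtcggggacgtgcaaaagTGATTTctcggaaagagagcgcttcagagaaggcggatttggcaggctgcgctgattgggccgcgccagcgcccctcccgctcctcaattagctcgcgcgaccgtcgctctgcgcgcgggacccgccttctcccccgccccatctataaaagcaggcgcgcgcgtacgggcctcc

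The Gfi1 promoter held 1 C/EBP match, which began 143 bases before the start, and the Irf8 promoter held 1 Gfi1 core match, on the opposite strand, 175 bases before it. The second listed Irf8 start had a Gfi1 core match of its own at 226 bases. The windows of Cebpa, Cebpb, Cebpg and the second Gfi1 start held none of these letters. Of 32851 promoters of this length, 9.56% held the C/EBP motif, 23.3% the PU.1 core and 12.4% the Gfi1 core, so such a match is common and describes only the letters.

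Values below are log2 signals, that is log2 of the probe's intensity over the 75th percentile of its array; levels of different probes are not set against each other. KO minus WT was tested with limma in 2 ways: the 6 KO arrays against the WT array of slide 2, where the lone WT array is taken to have the spread of the 6 KO arrays, and 7 KO arrays (the KO array of slide 1 added) against both WT arrays with slide as a block. P values were adjusted by Benjamini-Hochberg over all features tested, with 0.05 as the threshold. On slide 2, 0.587% of 19595 features passed (1 higher and 114 lower in KO), none of them among the features above background on all 10 arrays. With both slides 0% of 22316 passed in limma, where 502 features were higher and 810 lower at an unadjusted p under 0.05. None of the 8 factors passed in either comparison. The RNA came from a sorted mixture, so fewer cells of a type and less RNA per cell cannot be told apart.

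**Figure D1:**
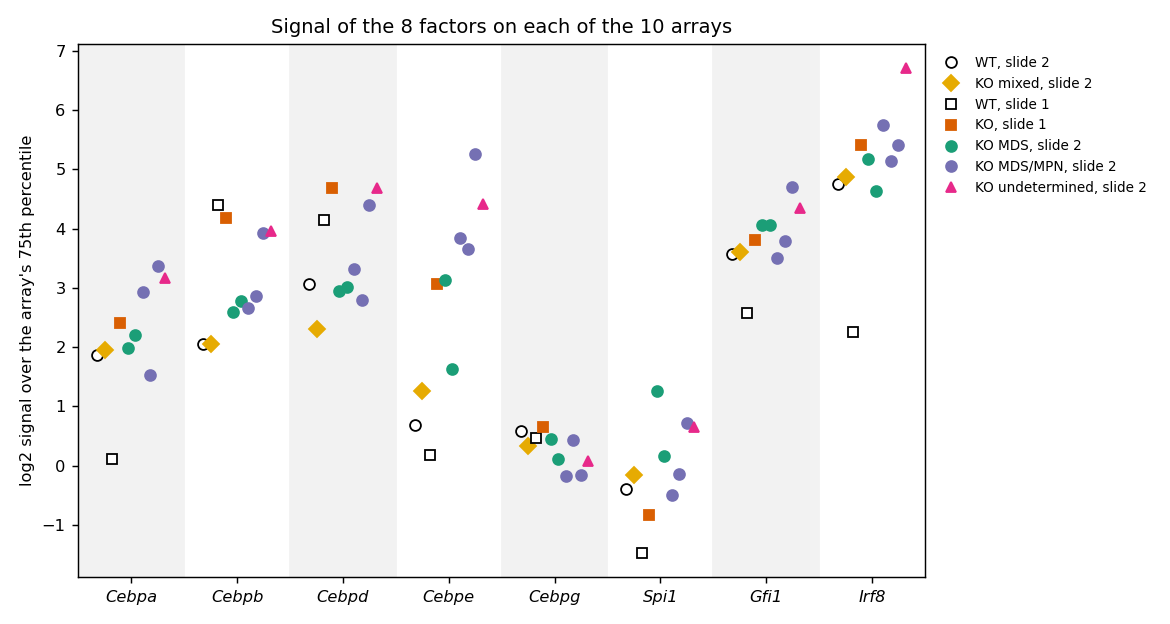
Log2 signal over the 75th percentile of the array (vertical axis) of the 8 factors (horizontal axis) on each of the 10 arrays. Each symbol is 1 array, open for WT and filled for KO. For Cebpe both WT arrays lie below all 8 KO arrays; for Cebpa, Gfi1 and Irf8 the WT array of slide 1 lies lowest while the WT array of slide 2 lies within the KO range.

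Cebpe (chromosome 14, 54710363 to 54712174) differed most between genotypes. In WT its signal was 0.68 on slide 2 and 0.17 on slide 1. On slide 2 the KO arrays read 3.13 and 1.63 in MDS, 3.84, 3.65 and 5.27 in MDS/MPN and 4.42 in the undetermined case, the mixed array read 1.27, and the KO array of slide 1 read 3.06. All 8 KO arrays were above both WT arrays, with the mixed array and MDS replicate 2 nearest to them. All 8 KO arrays lay above both WT arrays for 3.17% of the features tested. On slide 2 the difference was 2.97 ± 1.07 (SE, 6 KO arrays and 1 WT array, 7.84-fold, 95% interval 0.54 to 5.40), with adjusted p = 0.697 in limma. With both slides it was 2.94 ± 0.81 (7 KO and 2 WT arrays, 7.68-fold, 95% interval 1.13 to 4.75), with adjusted p = 0.549 in limma and rank 193 by p. Cebpe was among the 1.42% of features on slide 2, and the 2.25% with both slides, that were higher at an unadjusted p under 0.05. The pair on slide 1 gave 2.89, and the mixed array was 0.58 above the WT array of its slide.

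Cebpe was also the factor with the widest spread among the 6 KO arrays. Its SD was 1.23, and 98.5% of the 14298 features above background on all arrays had a smaller one, against a median SD of 0.49. In order of level, only the gap of 1.44 between MDS replicate 2 and the KO array of slide 1 exceeded that SD, so neighbours elsewhere in the order did not differ beyond the spread of the KO arrays.

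Cebpa (chromosome 7, 35119293 to 35121928) was lower on the WT array of slide 1 than on any other array. In WT it read 1.87 on slide 2 and 0.10 on slide 1. The KO arrays of slide 2 read 1.98 and 2.20 in MDS, 2.94, 1.54 and 3.37 in MDS/MPN and 3.16 in the undetermined case; the mixed array read 1.95, and the KO array of slide 1 read 2.41. MDS/MPN replicate 2 was below the WT array of its slide, so the groups overlapped. The difference was 0.65 ± 0.70 on slide 2 (adjusted p = 0.9999) and 1.26 ± 0.59 with both slides (adjusted p = 0.881, limma). The slide 1 pair alone differed by 2.30.

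Irf8 (chromosome 8, 120736358 to 120756694) had the same low point. Its signal was 2.25 on the WT array of slide 1, 4.75 on the WT array of slide 2, 5.42 on the KO array of slide 1 and 4.87 on the mixed array. The other KO arrays read 5.17 and 4.64 in MDS, 5.74, 5.14 and 5.41 in MDS/MPN and 6.71 in the undetermined case. On slide 2 the KO and WT arrays overlapped, and the difference was 0.72 ± 0.68 (adjusted p = 0.9999). With both slides it was 1.62 ± 0.64 (adjusted p = 0.763, limma), between the slide 2 difference and the 3.16 of the slide 1 pair. Without the WT array of slide 1 the value is that of slide 2, 0.72, and without the WT array of slide 2 it is that of slide 1, 3.16.

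Gfi1 (chromosome 5, 107716655 to 107725805) spanned a narrower range. It read 3.58 on the WT array of slide 2, 2.58 on the WT array of slide 1, 3.81 on the KO array of slide 1 and 3.61 on the mixed array. The KO arrays of slide 2 read 4.06 and 4.06 in MDS, 3.50, 3.79 and 4.70 in MDS/MPN and 4.35 in the undetermined case, 5 of 6 above the WT array. The difference was 0.50 ± 0.50 on slide 2 (adjusted p = 0.9999) and 0.77 ± 0.39 with both slides (adjusted p = 0.906, limma). On slide 1 it was 1.23.

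Spi1 (chromosome 2, 91082374 to 91115759) was lowest on slide 1 in both genotypes, at -1.47 in WT and -0.84 in KO. On slide 2 it read -0.40 in WT, -0.15 on the mixed array, 1.27 and 0.16 in MDS, -0.50, -0.14 and 0.72 in MDS/MPN and 0.65 in the undetermined case. MDS replicate 1 was highest of all 10 arrays and MDS/MPN replicate 1 was below WT. The difference was 0.76 ± 0.64 on slide 2 (adjusted p = 0.9999) and 0.71 ± 0.48 with both slides (adjusted p = 0.950, limma). No gap between neighbouring arrays exceeded the SD of 0.64 over the 6 KO arrays.

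Cebpb (chromosome 2, 167688915 to 167690432) and Cebpd (chromosome 16, 15887286 to 15889545) read higher on slide 1 in both genotypes than in WT on slide 2. Cebpb read 4.40 in WT and 4.17 in KO on slide 1. On slide 2 it read 2.06 in WT, 2.06 on the mixed array, 2.59 and 2.78 in MDS, 2.67, 2.87 and 3.93 in MDS/MPN and 3.96 in the undetermined case. All 6 KO arrays were thus above the WT array of their slide, as for 9.29% of features, and all were below both arrays of slide 1. The difference was 1.07 ± 0.63 on slide 2 (adjusted p = 0.9999) and 0.59 ± 0.52 with both slides (adjusted p = 0.961, limma), with -0.23 on slide 1.

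Cebpd read 4.14 in WT and 4.69 in KO on slide 1. On slide 2 it read 3.07 in WT, 2.30 on the mixed array, 2.94 and 3.02 in MDS, 3.32, 2.79 and 4.40 in MDS/MPN and 4.68 in the undetermined case. As for Cebpb, the third MDS/MPN array and the undetermined array were the highest on slide 2. On slide 2, 3 KO arrays lay above and 3 below WT, and the difference was 0.46 ± 0.75 on slide 2 (adjusted p = 0.9999) and 0.49 ± 0.57 with both slides (adjusted p = 0.966, limma).

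Cebpg (chromosome 7, 35046422 to 35056566) was the factor with the smallest spread and the only member with a negative difference in both comparisons. It read 0.58 in WT on slide 2 and 0.47 in WT and 0.65 in KO on slide 1. The KO arrays of slide 2 read 0.45 and 0.11 in MDS, -0.18, 0.43 and -0.15 in MDS/MPN and 0.08 in the undetermined case, and the mixed array read 0.34. All 6 KO arrays were below the WT array of slide 2, as for 13.9% of features, while on slide 1 KO was above WT by 0.18. The difference was -0.46 ± 0.42 on slide 2 (adjusted p = 0.9999) and -0.23 ± 0.34 with both slides (adjusted p = 0.974, limma). Its SD over the 6 KO arrays was 0.27, and 14.4% of features had a smaller one.

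**Figure D2:**
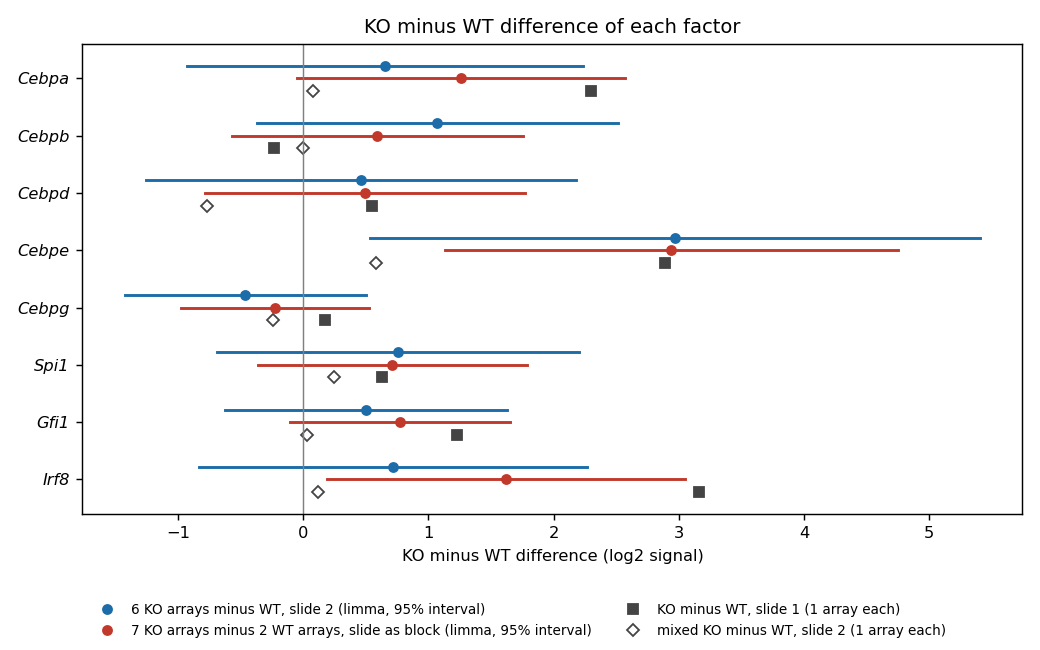
KO minus WT difference in log2 signal (horizontal axis) for each factor (vertical axis). Circles are limma estimates with 95% intervals, blue for slide 2 and red for both slides with slide as a block; squares are the slide 1 pair and diamonds the mixed array minus WT on slide 2, 1 array each. The intervals of Cebpe lie above 0 in both comparisons and that of Irf8 with both slides (0.19 to 3.05); these intervals are not adjusted for the number of features tested.

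The slide 1 pair had no replicates and no test. Cebpa, Cebpe, Gfi1 and Irf8, 4 of the 8 factors, were at least 2-fold higher in KO there, and 12.8% of 22421 features were. None of the 8 was at least 2-fold lower, as were 12.1% of features. Between the mixed array and WT on slide 2 no factor differed 2-fold, and 4.51% of features were at least 2-fold higher and 4.35% lower. The WT arrays themselves differed: on slide 1 Cebpb and Cebpd were at least 2-fold higher than on slide 2, as were 14.1% of features, and Cebpa, Spi1 and Irf8 at least 2-fold lower, as were 9.87%. Slide and time label cannot be told apart in this difference. The KO effect on slide 2 minus that on slide 1 was -2.45 ± 1.14 for Irf8 (adjusted p = 0.999999), -1.65 ± 1.16 for Cebpa and 1.30 ± 1.06 for Cebpb, and 0.08 ± 1.77 for Cebpe. Of 23290 features 0% passed this test in limma, with 556 higher and 604 lower at an unadjusted p under 0.05.

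Between the diseases, Cebpe was higher in all 3 MDS/MPN arrays (3.65 to 5.27) than in both MDS arrays (1.63 and 3.13). The difference was 1.87 ± 0.70 (SE, 3 against 2 arrays, 3.66-fold, 95% interval 0.15 to 3.59), with adjusted p = 0.992 in limma. Groups without overlap in this direction were found for 7.74% of 20724 features, and Cebpe was among the 1.49% that were higher at an unadjusted p under 0.05. After adjustment 0% passed (309 higher and 614 lower at an unadjusted p under 0.05). These unadjusted counts depended on MDS/MPN replicate 2, the array with the highest 75th percentile (301.7). Without it 4083 of 21528 features were higher and 2389 lower in limma, and 0 passed. The counts were 352 and 351 without replicate 1, and 786 and 338 without replicate 3. The cause was not tested. Cebpa, Cebpb, Cebpd and Irf8 differed by 0.47 to 0.53 and overlapped between the diseases. Leaving out 1 array moved these values to between 0.15 and 1.06 for Cebpa, 0.079 and 0.71 for Cebpb, 0.077 and 0.88 for Cebpd, and 0.26 and 0.79 for Irf8. Spi1 was 0.69 ± 0.54 lower in MDS/MPN by its mean, with MDS replicate 2 inside the MDS/MPN range, and ranged from -1.24 to -0.13 with 1 array left out. Gfi1 (-0.06 ± 0.46) and Cebpg (-0.25 ± 0.37) were closer to 0.

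Over the 6 KO arrays of slide 2, the 28 pairs of factors were compared by Pearson's r with an exact two-sided permutation test. Of the 28 values of r, 22 were positive and 6 negative, and 3 had an unadjusted exact p under 0.05. Among the negative ones, for Cebpa and Cebpg r was -0.87 (exact p = 0.0319) and Spearman's rho was -0.77 (exact p = 0.103). Without the 2 arrays farthest from the median of Cebpa, r of this pair was -0.74. After adjustment over the 28 pairs the smallest p was 0.342. Cebpb and Cebpd each fell into separate clusters, with MDS/MPN replicate 3 and the undetermined array (3.93 and 3.96 for Cebpb, 4.40 and 4.68 for Cebpd) above the other 4 (2.59 to 2.87 and 2.79 to 3.32). No r is therefore given for pairs with these 2 genes. They include the pair with the smallest unadjusted exact p for r, Cebpa and Cebpd (0.0153), which had a positive rho of 0.94 (exact p = 0.0167).

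The genes whose signal most resembled that of each factor over the 10 arrays were sought among 10675 genes well above background on at least 8 arrays, as a description. The arrays share 2 slides and differ in genotype, so a high r can come from either. For Cebpe they included Hsd11b1 (r = 0.98), which regenerates active glucocorticoid, and Xrcc1 (r = 0.97), a DNA repair scaffold. For Irf8 they were Pelp1 (r = 0.98), the mitotic kinase gene Plk1 (r = 0.96) and Tmem229b (r = 0.96). For Cebpa they were the actin crosslinker gene Flna (r = 0.98), the histone gene H3c8 (r = 0.97) and the death gene Bax (r = 0.97), all 3 lower on the WT array of slide 1 than on any KO array.
Spi1 was nearest to Obi1 (r = 0.98), Abcb9 (r = 0.94) and Anpep (r = 0.91), the aminopeptidase CD13 of myeloid cells. Gfi1 was nearest to the leukocyte tetraspanin gene Cd37 (r = 0.94), Mvb12b (r = 0.93) and Cerk (r = 0.91). Cebpb was nearest to Gm12298 (r = 0.95), Ubald2 (r = 0.93) and Zfp622 (r = 0.92), Cebpd to P4ha3 (r = 0.96), Arfgap3 (r = 0.93) and Cdk5rap3 (r = 0.93), and Cebpg to Ss18 (r = 0.94), Dph6 (r = 0.94) and Rps6ka5 (r = 0.93).

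The genes on which these factors act were taken from 2 lists, and counts use the genes above background on all 10 arrays, so that no gene entered only through the group where it was high. Of 22 granulocyte genes on the array 14 qualified, and none passed the adjusted test in either comparison. On slide 2, 12 of the 14 had a positive KO minus WT value, with a median of 1.26, against 54.9% and 0.05 for the 14298 features above background on all arrays. With both slides the values were 12 of 14 and a median of 1.78, against 64.0% and 0.13. On the mixed array, left out of these fits, 6 of the 14 were positive against WT on slide 2, with a median of -0.036, against 53.4% and 0.018. On slide 2, 7 of the 14 had all 6 KO arrays above WT, as did 9.66% of those features.

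On slide 2 the largest differences were those of Lcn2, S100a8, Ltf and Camp, and with both slides those of Lcn2, Ms4a3, Elane and S100a8. Lcn2, a granule protein that binds iron siderophores and is switched on by C/EBP epsilon, read -1.49 and 0.21 in WT on slides 2 and 1, 2.08 to 4.68 on the 6 KO arrays and 2.21 on the KO array of slide 1. Its difference was 4.47 ± 0.86 on slide 2 (adjusted p = 0.0763) and 3.56 ± 0.75 with both slides (adjusted p = 0.371, limma). The mixed array, at -1.03, was within the WT range. S100a8, a calprotectin subunit (3.52 ± 1.39 on slide 2, adjusted p = 0.854), and Camp, the cathelicidin gene (3.03 ± 1.33, adjusted p = 0.9999), overlapped between the genotypes once slide 1 was included: the WT array there read 4.24 for S100a8 and 2.87 for Camp, inside the range of the 6 KO arrays. Ltf, lactoferrin, was well above background on 4 of the 6 KO arrays and not on the WT array of slide 2, which gives at least 2.35-fold higher there, but it read -0.64 in WT on slide 1, above 4 of the 6 KO arrays, and -2.71 in KO beside it.

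Of the primary granule genes, which C/EBP alpha activates, Mpo, Elane and Ctsg had their lowest signal on the WT array of slide 1, as Cebpa did, whereas Prtn3, proteinase 3, was lowest on the mixed array (4.58, against 4.87 on the WT array of slide 1). Elane, neutrophil elastase, read 4.76 and 2.63 in WT on slides 2 and 1, 6.08 on the KO array of slide 1 and 4.63 to 7.92 over the 6 KO arrays (1.65 ± 1.02 on slide 2, adjusted p = 0.9999, and 2.31 ± 0.82 with both slides, adjusted p = 0.701, limma). Ms4a3, a gene of granulocyte and monocyte progenitors, read 3.90 and 1.91 in WT, 6.23 on the KO array of slide 1 and 4.39 to 8.05 over the 6 KO arrays (3.10 ± 1.01 with both slides, adjusted p = 0.639). The slide 1 pair differed by 3.66 for Mpo, myeloperoxidase, 3.46 for Elane, 4.32 for Ms4a3 and 0.99 for Prtn3. Csf3r, the G-CSF receptor and a C/EBP alpha target, differed little: it read 7.40 and 7.68 in WT, 7.06 to 7.30 on the 6 KO arrays and 7.97 on the KO array of slide 1.

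Of the 11 markers of late neutrophils on the array, 9 are also granulocyte genes of the list above, so the lists are not independent. Their summed signal, in multiples of the 75th percentile over 11 genes, was 8.27 and 73.9 on the WT arrays of slides 2 and 1, 22.9 to 282.3 on the 6 KO arrays, 18.5 on the mixed array and 73.8 on the KO array of slide 1, and Cd177 and Mmp9 were not above background on any of the 10. On slide 1 single markers ran both ways: KO minus WT was 2.01 for Lcn2 and -2.08 for Ltf. The part of these markers in the Cebpe values was not tested.

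**Figure D3:**
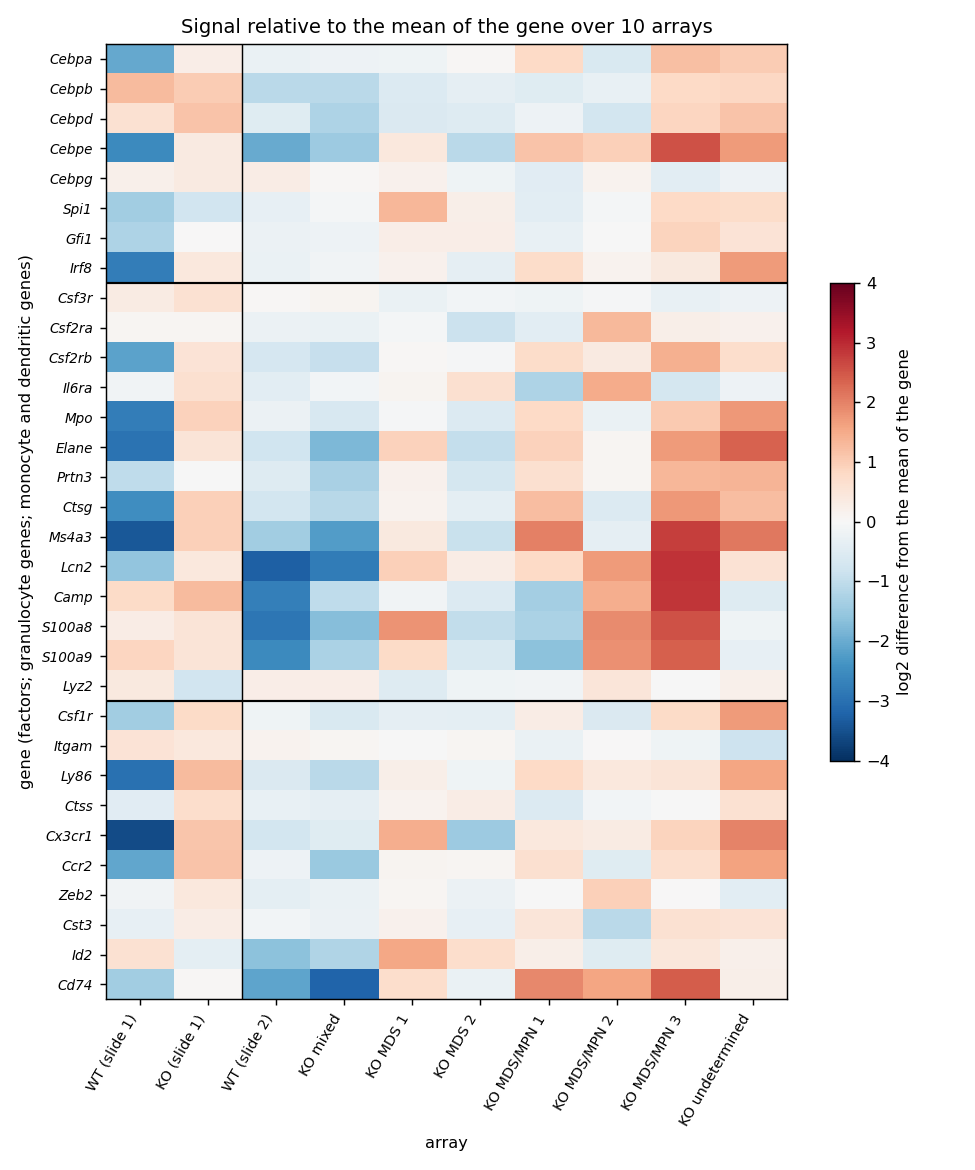
Log2 signal of the 8 factors (top block), 14 granulocyte genes (middle) and 10 monocyte and dendritic genes (bottom) on the 10 arrays (columns), each minus the mean of the gene over all 10 arrays. Red is above and blue below that mean, slide 1 stands left of the vertical line, and genes not above background on every array are left out. Mpo, Elane, Ctsg and Ms4a3 are lowest on the WT array of slide 1, as Cebpa and Irf8 are, and Lcn2 is lowest on the WT array of slide 2.

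The list of monocyte and dendritic genes, on which PU.1 and Irf8 act, had 16 genes on the array, 10 of them above background on all 10 arrays. On slide 2, 9 of the 10 had a positive value with a median of 0.56, and with both slides 9 of 10 with a median of 1.01; none passed the test. On the mixed array 3 of the 10 were positive, with a median of -0.099. Cd74, the MHC class II invariant chain, read 1.91 and 2.64 on the WT arrays of slides 2 and 1, 3.77 to 6.46 on the 6 KO arrays, 4.09 on the KO array of slide 1 and 0.84 on the mixed array (3.22 ± 0.93 on slide 2, adjusted p = 0.340, and 2.57 ± 0.75 with both slides, adjusted p = 0.595, limma). Batf3, a bZIP factor of dendritic cells that works with Irf8, was well above background on all 6 KO arrays of slide 2 (-2.25 to -0.53) and on none of the other 4, which gives at least 2.41-fold higher than WT on that slide. It entered the test only through those 6 arrays, so its p is not given. Cx3cr1, a chemokine receptor of monocytes, read 0.23 and -2.62 in WT, 2.07 on the KO array of slide 1 and -0.51 to 2.95 over the 6 KO arrays (2.57 ± 0.94 with both slides, adjusted p = 0.710). Csf1r, the M-CSF receptor, read 4.60 and 3.38 in WT, 5.56 on the KO array of slide 1 and 4.21 to 6.48 over the 6 KO arrays (1.07 ± 0.66 with both slides, adjusted p = 0.943).

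The summed signal of 8 macrophage markers was 0.59 and 0.45 on the WT arrays of slides 2 and 1, 0.93 to 8.13 on the 6 KO arrays and 0.78 on the KO array of slide 1, and Mrc1 stayed near background on all 10. Vcam1 was well above background on all 6 KO arrays of slide 2 (-1.26 to 2.63) and on neither WT array, at least 6.25-fold higher than WT there. All 6 KO arrays lay above that WT array for 9.29% of the features tested on slide 2. Cd5l was above background on 5 of the 6 KO arrays and on neither WT array. Both genes entered the test only through KO arrays, so no p is given. C1qb, above background on 4 of the 6 KO arrays and on 1 WT array, differed by 0.46 on slide 2 and by -0.36 on slide 1. B cells also express Cd74, and their 10 markers summed to 25.8 and 19.5 in WT and to 26.8 to 65.8 on the 6 KO arrays. The sum was 34.4 on the mixed array and 30.3 on the KO array of slide 1. The brightest markers weigh most in it: on the WT arrays only Cd79b and Vpreb1 were above background. The part of these markers in the Irf8 and Cd74 values was not tested.

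The factors that oppose or partner the members showed no common direction. Of 25 on the array 18 were above background on all arrays, 9 with a positive and 9 with a negative value on slide 2 (median 0.02), and 11 positive with both slides. Gata1, the erythroid factor that PU.1 antagonises, read 2.78 and 1.57 in WT, 4.42 on the KO array of slide 1 and 2.13 to 6.67 over the 6 KO arrays (1.74 ± 1.55 on slide 2, adjusted p = 0.9999, limma). Klf1, the erythroid factor that Gata1 activates, read -1.16 in WT on slide 2, was not well above background in WT on slide 1, and read -1.62 to 3.94 on the 6 KO arrays (2.43 ± 1.76 on slide 2, adjusted p = 0.9999). Egr1, a partner in monocyte fate and an immediate early gene, read 4.12 and 7.11 in WT and -1.06 to 5.52 on the 6 KO arrays (-2.77 ± 1.97, adjusted p = 0.9999). Trib2, which degrades C/EBP alpha protein, read -1.11 and -1.52 in WT and -1.15 to 1.64 on the 6 KO arrays (1.15 ± 0.88, adjusted p = 0.9999). The summed signal of 13 erythroid markers, Gata1 among them, was 97.4 and 155.8 in WT on slides 2 and 1. It was 89.3 to 695.2 on the 6 KO arrays, 100.55 on the mixed array and 147.9 on the KO array of slide 1. The brightest markers weigh most in this sum. Of the 9 markers above background on all arrays, 8 had a positive value on slide 2, with a median of 2.23, and none passed the test. Of all features above background on all arrays 54.9% were positive there, with a median of 0.05. For 6 of the 9 markers all 6 KO arrays lay above WT on slide 2, as for 9.66% of those features. On slide 1, 7 of the 9 were higher and 2 lower in KO, with a median of 2.25. Of all such features 70.7% were higher there, with a median of 0.31. The part of the erythroid markers was not tested.

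Of the 11 other bZIP factors 9 were above background on all arrays, 5 with a positive and 4 with a negative value on slide 2 (median 0.04). Of these 9 the largest difference was that of Hlf, a stem cell factor (-1.97 ± 1.52, adjusted p = 0.9999, limma). Atf3, a stress factor, read 0.24 and 5.25 in WT and 4.48 in MDS/MPN replicate 2, and was not well above background on the other 5 KO arrays (-4.71 to -3.22). Hlf read 3.99 and 3.97 in WT, 4.01 and 4.29 in MDS and -0.01 to 2.17 in the 4 other KO arrays. Nfil3, which acts in lymphoid and myeloid cells, differed by 0.96 ± 0.72.

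For Gfi1, its corepressors together with its paralog Gfi1b, and the genes it represses, were read. The 5 genes of the first list above background on all arrays had values between -0.05 and 0.90 on slide 2. The highest was Gfi1b, and the corepressors alone reached 0.42. Gfi1b, the paralog of erythroid cells, was at 0.90 ± 1.01, Ehmt2 at 0.42 ± 0.49 and Rcor1 at 0.41 ± 0.55 (adjusted p = 0.9999 each, limma). Of 8 genes that Gfi1 is known to repress, 5 had a positive and 3 a negative value (median 0.34). Id1, an inhibitor of bHLH factors, read -1.01 in WT and 0.19 to 2.81 on the 6 KO arrays of slide 2 (2.42 ± 0.99, adjusted p = 0.918), and 6.02 in WT and 4.91 in KO on slide 1. Id2, of the same family, read -0.16 in WT and 1.01 to 3.03 on the 6 KO arrays (2.08 ± 0.65, adjusted p = 0.459), with 2.08 in WT and 1.08 in KO on slide 1. Meis1, a stem cell homeobox gene, read 5.07 and 5.62 in WT and 3.15 to 4.86 on the 6 KO arrays (-1.18 ± 0.70, adjusted p = 0.9999).

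**Figure D4:**
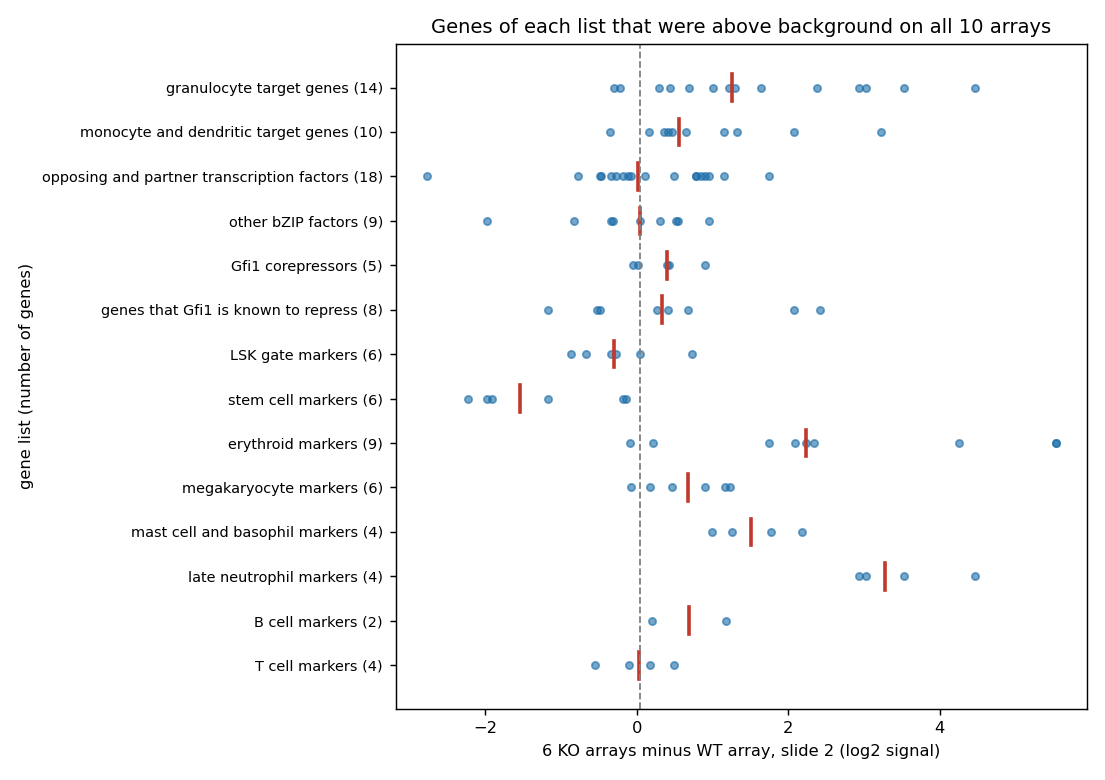
KO minus WT difference in log2 signal on slide 2 (horizontal axis; 6 KO arrays minus 1 WT array) of the genes of each list (vertical axis, number of genes in parentheses) that were above background on all 10 arrays. Dots are genes, red bars list medians and the dashed line the median of 0.05 over 14298 features. Late neutrophil (3.28), erythroid (2.23) and mast cell (1.52) markers have the highest medians, granulocyte genes 1.26 (all 4 late neutrophil genes shown are among them), and stem cell markers (-1.54) the lowest.

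Stem cell markers had negative values beside those of the factors. All 6 of these markers that were above background on all arrays had a negative value in both comparisons (medians -1.54 and -1.80), and none passed the test. Procr, the endothelial protein C receptor, read 3.18 and 5.36 in WT, 1.43 on the KO array of slide 1, 3.26 and 2.97 in MDS and -0.35 to 1.41 on the other 4 KO arrays. On these 4, the MDS/MPN and undetermined arrays, Cebpe was 3.65 or more. The 2 genes did not run opposite on every array. Cebpe read 3.06 on the KO array of slide 1, where Procr was 1.43, and 3.13 in MDS replicate 1, where Procr was 3.26. Esam, a stem cell adhesion gene, read 2.60 and 3.73 in WT and -1.34 to 1.78 on the 6 KO arrays (-2.23 ± 1.03 on slide 2, adjusted p = 0.9999, limma). The gate genes Kit (-0.67 ± 0.62) and Cd34 (-0.87 ± 0.49) differed less. The part of the makeup of the gate in the values of the factors was not tested.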

How the data were processed

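Each of 10 samples was labelled with Cy3 from 0.02 µg of RNA and hybridised to 1 Agilent one-colour array. The deposited scanner files give background-subtracted intensity per spot from Feature Extraction 10.7.1.1, per the file headers, while the submitters' processing notes name version 9.1. The deposited value table holds a ratio, the intensity over the 75th percentile of the array, found by matching its columns to the scanner files.

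Intensities were averaged per probe after leaving out control and outlier spots, divided by that percentile and taken to log2. Of 55681 probes, 27656 were named by 1 symbol through RefSeq accessions and the RefSeq table of GRCm38.p6; the brightest probe stood for a gene. Features well above background on at least 50% of the arrays of 1 group compared were tested with limma 3.58.1 (R 4.3.3), with Benjamini-Hochberg adjustment; tables and figures used Python 3.11.15. The fits were tested on simulated data. For a gene that was dim on all arrays of a group, a fold is given as "at least", against the lowest signal well above background on each array. Alternatives were the scaling, background correction, dim filter, probe rule, variance model, slide block, value table, mixed array and leaving out arrays. Labels do not state that each replicate is a separate mouse, so p-values measure the spread between these samples, and the number of arrays limits the precision. The members and lists were chosen with earlier results of these data known. Genes named are the members, the 3 most similar genes per member (1 of them is not reported here), and genes of each list among the up to 4 with the largest difference per comparison, with Mpo, Csf3r, Ctsg and Prtn3 named after their values were seen.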

Additional observations from a re-analysis of the deposited data

How the results depend on the processing

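None of the 8 factors passed the adjusted threshold under any alternative run; the lowest adjusted p was 0.0918, for Irf8 with the deposited value table. Cebpe kept its direction under all 14 alternatives to the slide 2 comparison (2.42 to 3.49). It also did under all 18 with both slides (2.33 to 3.19, lowest adjusted p = 0.280, limma) and all 12 between the diseases (1.12 to 2.63). The 3.49 came from the deposited value table, whose labels set the slide 2 KO arrays against the slide 1 WT array. The next highest value was 3.38, without MDS replicate 2.

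The deposited value table was also run with its own labels, which put the slide 1 WT array in place of that of slide 2. Against WT at 9 to 12 months, Cebpb and Cebpd then reversed (-1.26 and -0.61), and Cebpa was 2.43, Irf8 3.22, Spi1 1.84 and Gfi1 1.50. Slide and genotype cannot be told apart in these values. In the fit with both WT arrays, Cebpb and Cebpd also reversed (-0.80 and -0.67). There the mixed array stood in place of the slide 1 KO array, and the block followed the labels, not the slide of the signals. With both slides, leaving out 1 array gave Cebpb -0.23 to 1.07 and Cebpg -0.46 to 0.18, both reversed without the WT array of slide 2 (an alternative added after seeing the data). Between the diseases Gfi1 ranged from -0.41 to 0.19, reversed without MDS/MPN replicate 1 (0.19) or 2 (0.042). For the effect on slide 2 minus that on slide 1, Cebpd was 0.16 after quantile normalization, which moved the median of all features from -0.23 to -0.10. Leaving out 1 array there gave Cebpd -0.32 to 0.062 (reversed without either MDS replicate or MDS/MPN replicate 2), Cebpe -0.24 to 0.49 (reversed without MDS/MPN replicate 3, or with the undetermined array left out) and Spi1 -0.054 to 0.30 (reversed without MDS replicate 1).

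Of all features on slide 2, 115 passed, against 247 after quantile normalization, 50 without a filter, 182 with the mixed array, and 0 for features above background on every array (138 higher and 74 lower at an unadjusted p under 0.05, limma) or with trend and robust (286 and 553). Leaving out 1 array gave 0 (without MDS replicate 1 or MDS/MPN replicate 3), 4 (MDS replicate 2), 12 (undetermined) and up to 215 (MDS/MPN replicate 2). With both slides 1 passed after quantile normalization, 104 without the slide 1 KO array and 117 without the slide 1 WT array (range 0 to 117), which leave the fit to slide 2. The interaction gave 184 after quantile normalization. The causes were not tested. No paired analysis was possible because the labels give the groups no shared replicate numbers. A group of 1 WT array per slide limits every genotype comparison.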
